A study of Mus musculus with 15 samples.

Results

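The genes described here are Tek and Tie1, the Tie receptor genes, and Angpt1, the gene of the main ligand of Tek. Members were all probe sets whose platform gene symbol was Tek, Tie1 or Angpt1, which gave 4 probe sets of 3 genes (1 for Tek, 1 for Tie1 and 2 for Angpt1) among 45101 on the array. Tek was chosen by its own measured values: it was selected on its rise in Apc mutant cells over wild-type cells in these same arrays, so its levels against wild type are given as a description with no test. Tie1 and Angpt1 were taken for their family and the gene lists below for their function, but with earlier results of these data known. Their p-values are therefore not those of genes picked blind to the data.

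RNA was profiled on 15 Affymetrix arrays, 1 per sample, in LSK cells of mouse bone marrow, a population without lineage markers that carries Sca1 and Kit and holds the blood stem cells. The mice were C57BL6 and differed at Apc, whose product helps to degrade beta-catenin and so holds Wnt signalling in check. Of the 4 genotypes, wt/wt (titled WT, 6 arrays) carried wild-type Apc. 15lox/15lox (KO, 3 arrays) carried floxed alleles only, while 15lox/1638N (N1638, 3 arrays) and 15lox/1572T (T1572, 3 arrays) paired the floxed allele with a hypomorphic allele. Cells of every genotype, wild type included, received a gamma-retrovirus encoding Cre and GFP ex vivo, in Stemspan medium with stem cell factor, thrombopoietin and the ligand of Flt3, and were sorted for GFP. Cre thus reached the floxed alleles in cultured cells that took up the virus, and by its label no mutant group kept a wild-type Apc allele. Efficiency of recombination is not given in the labels. The question behind the series is what graded Wnt signalling does to haematopoietic cells. Ages, sexes and the number of animals behind a sample are not in the labels, which do not say whether replicates came from separate animals. Each mutant genotype held arrays high and arrays low for Xist, a mark of female cells. Its arrays therefore did not all come from the same animal. The wild-type arrays used in the comparisons were all low for Xist. The p-values measure the spread between these samples, which may be technical in part.

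Tek, also called Tie2, is a receptor tyrosine kinase of endothelial cells and blood stem cells. Angiopoietin 1, the product of Angpt1, activates it, while angiopoietin 2 acts mostly as an antagonist that depends on context. Tie1 is an orphan receptor that pairs with Tek and tunes its signal, and the phosphatase encoded by Ptprb removes phosphate from Tek in endothelium. In bone marrow, angiopoietin 1 acting on Tek is known for keeping stem cells attached to their niche and quiescent.

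Sequences before a start site of each receptor gene are shown because Wnt output reaches genes through TCF and LEF factors, and ETS factors are textbook regulators of both Tie genes. Sequences were taken from RefSeq on build GRCm38.p6, 5′ to 3′ on the gene's strand. The Tek stretch, chr4:94739250-94739279 on the plus strand, holds 30 bases around a TCF/LEF motif in capitals. The Tie1 stretch, chr4:118489850-118490099 on the minus strand, holds the 250 bases before its start site, with ETS letters in capitals, the second match being the reverse complement of AGGAAG.
Tek: gaccttacttgtAACAAAGatccctctgcc
Tie1: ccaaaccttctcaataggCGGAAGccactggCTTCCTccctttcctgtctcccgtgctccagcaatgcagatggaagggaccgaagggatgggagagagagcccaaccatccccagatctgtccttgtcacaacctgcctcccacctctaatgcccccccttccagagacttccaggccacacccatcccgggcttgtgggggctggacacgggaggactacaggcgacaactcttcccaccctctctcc

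The Tek start site used is chr4:94739289, which lies 203 bases inside the gene's span of chr4:94739086-94874976. The Tek stretch shown is therefore before that start site but within the gene's span. Tie1 spans chr4:118471191-118489849. Angpt1 spans chr15:42424667-42676977. Each window searched ran from 250 bases before to 50 bases after the start site, on both strands, and no matches of different motifs overlapped. The TCF/LEF letters searched were AACAAAG, its variant ATCAAAG, the variant TACAAAG and the variant TTCAAAG. Any of them was found in 5544 of 32851 mouse windows, or 16.9%. Tek held AACAAAG, which begins 27 bases before its start site, and the Tie1 window held no such letters. The ETS letters AGGAAG or CGGAAG stood in 46.5% of windows and occurred 3 times in that of Tie1 but not in that of Tek. The GATA letters AGATAA or TGATAA stood in 18.6% of windows, and Tek held AGATAA beginning 36 bases after its start site. These matches describe letters only; no binding was measured.

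Tek stood at a low level in wild-type and 15lox/1572T cells and at a high level in 15lox/1638N and 15lox/15lox cells, with no array in between. All levels are log2 probe set values, in which a step of 1 is a doubling, and the main wild-type group is WT 4 to 6, since WT 1 to 3 stand apart in a way set out below. On the probe set 1418788_at, wild-type arrays 4, 5 and 6 read 8.07, 7.57 and 8.26, a mean of 7.97 ± 0.36 (SD, n = 3). The 15lox/1572T arrays read 8.22, 8.71 and 8.20, a mean of 8.38 ± 0.29 (SD, n = 3). That range overlapped the wild-type range, with 1 mutant array above every wild-type array. The 15lox/1638N arrays read 10.44, 10.27 and 10.41, a mean of 10.37 ± 0.09 (SD, n = 3). The 15lox/15lox arrays read 9.76, 10.89 and 9.93, a mean of 10.19 ± 0.61 (SD, n = 3). The highest single reading and the widest spread were therefore in 15lox/15lox, and the tightest group was 15lox/1638N.

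**Figure D1:**
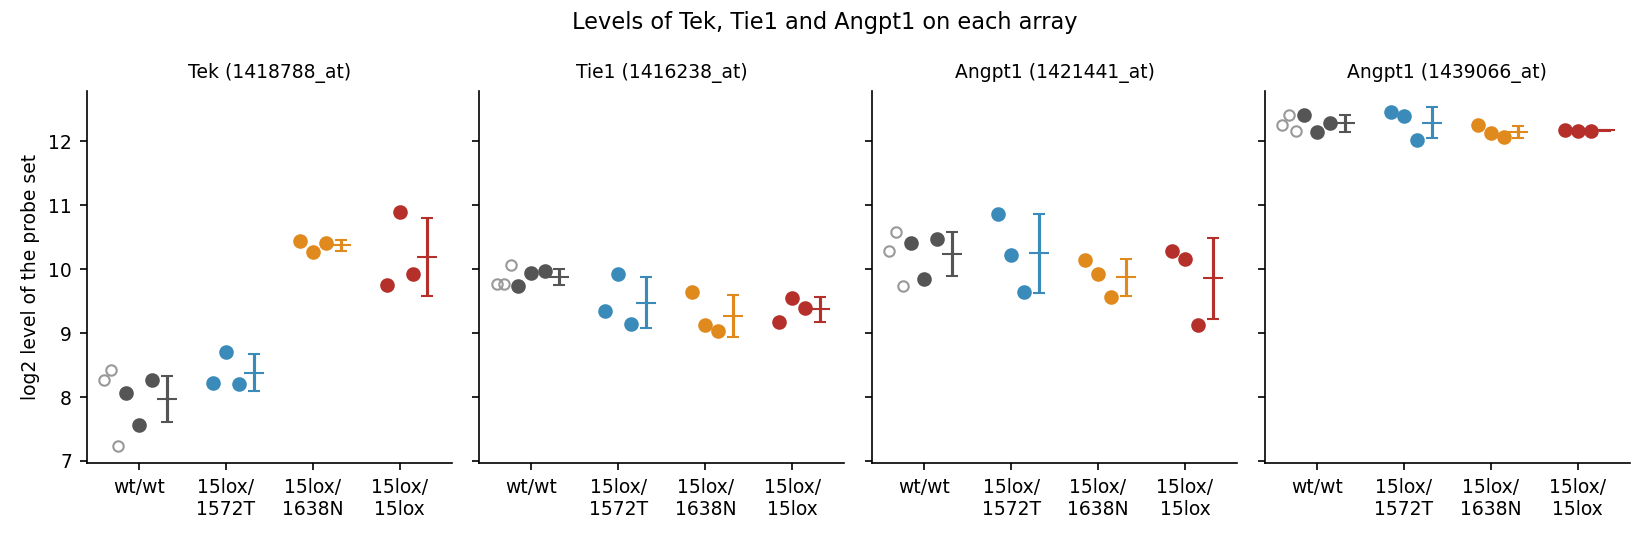
Log2 level (y axis) of each member probe set on every array, by genotype (x axis); filled points are the arrays used in the comparisons, hollow grey circles are WT 1 to 3, and the bars beside the points are mean ± SD (n = 3). Tek lies between 7.57 and 8.71 in wild-type 4 to 6 and 15lox/1572T arrays and between 9.76 and 10.89 in the other mutants, whereas Tie1 and Angpt1 levels overlap between most genotypes.

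Against wild type, Tek was higher by 2.41 ± 0.27 (SE) in 15lox/1638N, which is 5.30-fold, and by 2.23 ± 0.27 in 15lox/15lox, which is 4.68-fold. In 15lox/1572T the difference was 0.41 ± 0.27, or 1.33-fold. These are the differences the gene was selected on, so they carry no test. Over 24 alternative ways of fitting they ran from 2.21 to 2.55, from 1.88 to 2.44 and from 0.21 to 0.56. Tek has 1 probe set, so no second probe set could be set beside it.

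The order of the Tek levels was wild type, 15lox/1572T, 15lox/15lox and 15lox/1638N. The lower pair of neighbours overlapped, and so did the upper pair. The mutants were compared with each other by limma, with p-values adjusted by Benjamini and Hochberg over all 45101 probe sets and a threshold of 0.05. These differences do not use the wild-type levels, but their spread was estimated from all 12 arrays, wild-type arrays included. They use the mutant arrays on whose high readings Tek was selected, so their p-values are not independent support for a difference.

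Tek was 3.53-fold higher in 15lox/15lox than in 15lox/1572T, with a difference of 1.82 ± 0.27 (SE), a 95% interval of 1.21 to 2.42 and a limma adjusted p of 0.00697. All 3 arrays of 15lox/15lox lay above all 3 of 15lox/1572T. Of all probe sets, 1.00% were called in that comparison. With only those 2 groups in the fit the difference was again 1.82 but the adjusted p was 0.107; over the 24 alternatives it ran from 1.47 to 2.04 and the call was made in 23.

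Between 15lox/1638N and 15lox/1572T, Tek differed by 2.00 ± 0.27 (SE), which is 3.99-fold, with a 95% interval of 1.39 to 2.60 and a limma adjusted p of 0.0152. Again the groups did not overlap, and 0.171% of all probe sets were called. The call ended without T1572 array 1 (adjusted p = 0.0871) or array 3 (0.0517), and without N1638 array 1 (0.0751), array 2 (0.052) or array 3 (0.0688). The difference itself stayed between 1.91 and 2.16 in the 24 alternatives, and the call was made in 18 of them. The other setting that ended it is given in the closing section.

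Between 15lox/15lox and 15lox/1638N no difference in Tek was detected. The difference was -0.18 ± 0.27 (SE) with a 95% interval of -0.78 to 0.43, which corresponds to a ratio between 0.581 and 1.34, and the limma adjusted p was 0.865. The groups overlapped, since 1 array of 15lox/15lox was above and 2 were below all arrays of 15lox/1638N. In this comparison 0.186% of all probe sets were called.

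**Figure D2:**
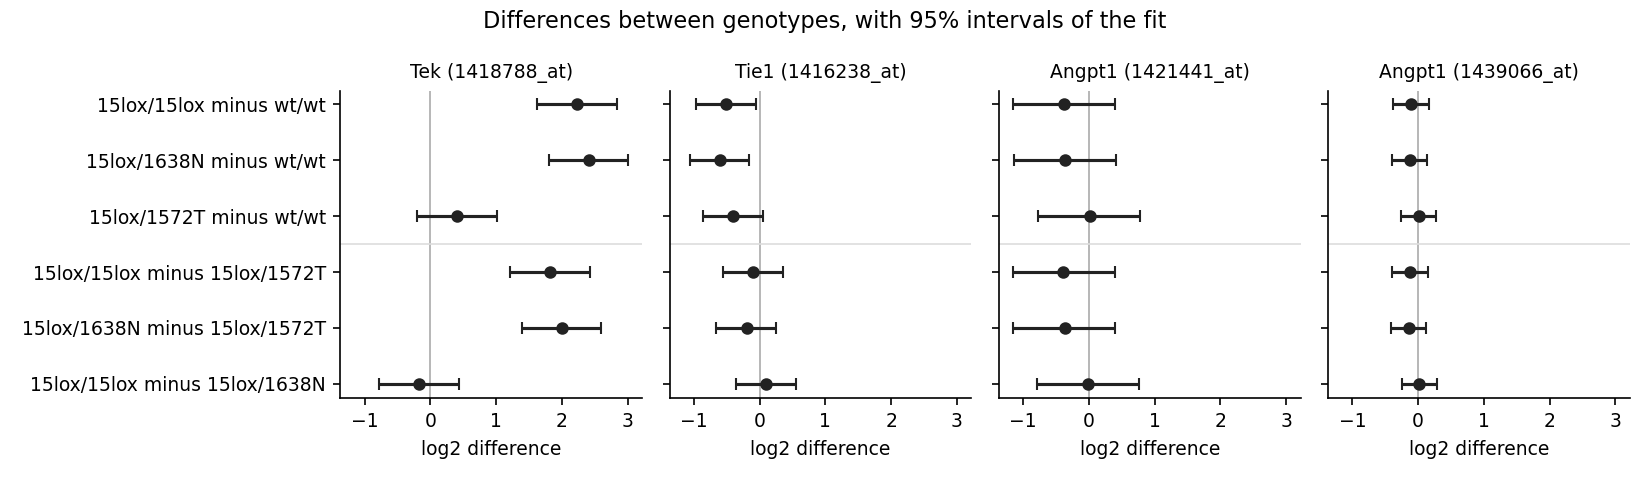
Log2 differences (x axis) between genotypes for each member probe set, as points with the 95% interval of the fit. The 3 rows at the bottom compare mutants with each other. For Tek, the rows against wild type are the differences it was selected on, so their intervals are a description and not a test. The intervals of Tek lie above 1 where 15lox/15lox or 15lox/1638N is set against 15lox/1572T, and those of both Angpt1 probe sets include 0 in every row.

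Tie1, the partner receptor, did not share the higher level of Tek in the mutants; its readings in them were level with or below those of wild type. On 1416238_at wild-type arrays 4, 5 and 6 read 9.73, 9.94 and 9.97, a mean of 9.88 ± 0.13 (SD, n = 3). The 15lox/15lox arrays read 9.17, 9.55 and 9.39 (mean 9.37 ± 0.19), and the 15lox/1638N arrays read 9.64, 9.13 and 9.04 (mean 9.27 ± 0.32). The 15lox/1572T arrays read 9.35, 9.92 and 9.15, a mean of 9.47 ± 0.40. Every array of 15lox/15lox and of 15lox/1638N was below every one of WT 4 to 6, while 15lox/1572T overlapped wild type.

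None of these Tie1 differences passed the test. The difference from wild type was -0.51 ± 0.21 (SE; 95% interval -0.97 to -0.06) in 15lox/15lox, with a limma adjusted p of 0.412. In 15lox/1638N it was -0.61 ± 0.21 (-1.06 to -0.16) with a limma adjusted p of 0.185, and in 15lox/1572T -0.41 ± 0.21 with 0.763. The share of all probe sets called was 1.49% in 15lox/15lox, 1.38% in 15lox/1638N and 0.0288% in 15lox/1572T. With all 6 wild-type arrays in the fit the 15lox/1638N difference was -0.60 and passed (limma adjusted p = 0.037), the only 1 of 24 alternatives in which it did. Between mutants the largest Tie1 difference was -0.20 (15lox/1638N against 15lox/1572T), with a limma adjusted p of 0.837.

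Angpt1, the ligand gene, was read by a pair of probe sets, and neither gave a difference past the threshold in any of the 6 comparisons. On 1439066_at wild-type arrays 4, 5 and 6 read 12.41, 12.15 and 12.29 (mean 12.28 ± 0.13, SD, n = 3), and 15lox/1572T arrays read 12.46, 12.40 and 12.02 (12.29 ± 0.24). The 15lox/1638N arrays read 12.25, 12.13 and 12.07 (12.15 ± 0.09), and the 15lox/15lox arrays read 12.18, 12.17 and 12.17 (12.17 ± 0.01). The 4 genotypes overlapped on this probe set. Its differences from wild type were -0.11 ± 0.12 in 15lox/15lox (95% interval -0.38 to 0.16), -0.13 in 15lox/1638N (-0.40 to 0.13) and 0.01 in 15lox/1572T (-0.26 to 0.28), with limma adjusted p of 0.838, 0.638 and 0.994.

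The other Angpt1 probe set, 1421441_at, was more variable. Its wild-type arrays read 10.41, 9.84 and 10.47 (10.24 ± 0.35, SD, n = 3), and its 15lox/1572T arrays 10.87, 10.23 and 9.64 (10.25 ± 0.62). The 15lox/1638N arrays read 10.14, 9.92 and 9.56 (9.87 ± 0.29), and the 15lox/15lox arrays 10.28, 10.16 and 9.13 (9.86 ± 0.63). Again the genotypes overlapped. The differences from wild type were -0.38 ± 0.35 in 15lox/15lox (95% interval -1.16 to 0.39), -0.37 in 15lox/1638N (-1.14 to 0.41) and 0.01 in 15lox/1572T (-0.77 to 0.78), with limma adjusted p of 0.794, 0.662 and 0.998. The intervals of this probe set were wider than those of the first.

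The rest of the receptor and ligand axis did not pass the test in any of the 3 mutants. Angpt2 read 6.92, 7.36 and 6.73 in wild type on 1459636_at and 8.22, 9.09 and 7.09 in 15lox/1572T, a difference of 1.13 ± 0.52 (SE; limma adjusted p = 0.73). Its difference was 0.83 in 15lox/1638N (0.469) and 0.48 in 15lox/15lox (0.835), and its mutant arrays were widely spread, with overlap in each genotype. Its other probe set went slightly the other way, by -0.11, -0.14 and -0.02 in 15lox/1572T, 15lox/1638N and 15lox/15lox, and did not pass either. Angpt4, another ligand gene, had genotype means between 5.23 and 5.50 on 1 probe set and between 5.16 and 5.42 on the other. Ptprb, the phosphatase gene, had genotype means between 3.93 and 4.77 over its 3 probe sets, which lay between the 2.2 and 20.4 percentile of their arrays. Of the 6 genes of this axis, none of the 5 beside Tek was called in any mutant by limma; Tie1 had an unadjusted p under 0.05 in 15lox/15lox (0.0306) and in 15lox/1638N (0.0131). Over all 18194 genes with 1 probe set each, 1.60% were called higher and 0.506% lower in 15lox/15lox, 0.769% and 1.28% in 15lox/1638N, and 0.0165% and 0.0330% in 15lox/1572T. An unadjusted p under 0.05 was reached by 11.7%, 19.2% and 7.43% of all these genes in 15lox/15lox, 15lox/1638N and 15lox/1572T, which is what such counts in the lists that follow stand beside.

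Of the angiopoietin-like ligand genes, 4 of 6 listed were measured and none was called in any mutant by limma; at an unadjusted p under 0.05 there was 1, in 15lox/1638N. Angptl6 had the largest difference, -1.09 ± 0.40 (SE) in 15lox/1638N (limma adjusted p = 0.222), -0.33 in 15lox/15lox and -0.79 in 15lox/1572T.

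Among 17 measured genes whose products carry or respond to the Tek signal, 1 rose and 1 fell in 15lox/15lox and 1 fell in 15lox/1638N. None was called in 15lox/1572T by limma, where 1 had an unadjusted p under 0.05. The median difference of the list was -0.05 in 15lox/15lox, -0.03 in 15lox/1638N and -0.05 in 15lox/1572T, beside -0.05, -0.03 and -0.03 over all genes. The PI3-kinase subunit, Akt1 and Foxo genes of the list, and its adaptor genes other than Grb14, did not pass the test.

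Klf2, a transcription factor gene induced downstream of Tek in endothelial cells, was the gene that fell. It read 7.73, 8.46 and 7.56 in wild-type arrays 4, 5 and 6 on 1448890_at. It read 6.48, 6.07 and 6.57 in 15lox/15lox, and 6.08, 5.97 and 6.64 in 15lox/1638N. Both mutants lay wholly below wild type, and so did 15lox/1572T, at 6.29, 6.64 and 7.18. Klf2 was 2.92-fold lower in 15lox/15lox (log2 difference -1.54 ± 0.28, SE, limma adjusted p = 0.0202) and 3.22-fold lower in 15lox/1638N (-1.69 ± 0.28, 0.0178). In 15lox/1572T the difference was -1.21 ± 0.28 (0.329). The 15lox/15lox call ended without WT array 4 (adjusted p = 0.0596) or 5 (0.081), KO array 1 (0.0549) or 2 (0.0981). The 15lox/1638N call ended without WT array 4 (0.0606) or 5 (0.0622), or N1638 array 1 (0.0758) or 2 (0.0822).

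Grb14, an adaptor gene whose product binds activated Tek, rose in 15lox/15lox. It read 5.07, 5.01 and 4.92 in wild type and 5.87, 6.25 and 6.70 in 15lox/15lox on 1417673_at, without overlap. The difference was 1.28 ± 0.20 (SE; limma adjusted p = 0.00674), against 0.30 in 15lox/1638N (0.495) and -0.06 in 15lox/1572T (0.98). The other Grb14 probe set differed by -0.03 in 15lox/15lox, so its probe sets disagree. Their mean differed by 0.62 (limma adjusted p = 0.0187). In wild type the probe sets lay low, at the 25.3 percentile for 1417673_at and 15.7 for the other, and no detection calls were used.

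Of 11 genes of transcription factors known to act on the Tek gene, 2 rose in 15lox/15lox and none fell, and none was called in 15lox/1638N or 15lox/1572T by limma, where 4 and 0 had an unadjusted p under 0.05. The list's median difference was -0.12 in 15lox/15lox, -0.01 in 15lox/1638N and 0.01 in 15lox/1572T. Epas1, which encodes the hypoxia-inducible factor HIF-2alpha, read 6.70, 6.42 and 6.97 in wild type on 1435436_at and 10.10, 10.72 and 9.42 in 15lox/15lox. It read 7.16, 7.60 and 8.39 in 15lox/1638N and 6.86, 6.29 and 6.53 in 15lox/1572T. The levels of 15lox/15lox were far above all others, and those of 15lox/1638N lay between. Epas1 was 10.5-fold higher in 15lox/15lox than in wild type (3.39 ± 0.35, SE, limma adjusted p = 0.00037) and differed by 1.02 in 15lox/1638N (0.189) and -0.13 in 15lox/1572T (0.971). It was also higher in 15lox/15lox than in 15lox/1638N, by 2.37 (limma adjusted p = 0.0245), whereas Tek was not. The other Epas1 probe set differed by 0.27 in 15lox/15lox (0.617), and the mean of both by 1.83 (0.000205).

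Ets2, an ETS family gene, rose by 0.44 ± 0.08 (SE) in 15lox/15lox, or 1.36-fold (limma adjusted p = 0.0242). It read 12.80, 12.79 and 12.83 in wild type and 13.33, 13.29 and 13.13 in 15lox/15lox. That call ended without any 1 of WT array 4 (0.108), 5 (0.106) or 6 (0.0746), KO array 1 (0.0932) or 2 (0.103), and with only the groups compared in the fit (0.107). Its other probe sets differed by -0.01 and 0.68.

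The 8 genes of stem cell adhesion and quiescence tied to angiopoietin signalling gave no call in any mutant by limma, with 2, 1 and 0 at an unadjusted p under 0.05 in 15lox/15lox, 15lox/1638N and 15lox/1572T. Cdkn1b, which encodes the cell cycle inhibitor p27, had the largest difference, -0.54 ± 0.24 (SE) in 15lox/15lox (limma adjusted p = 0.483), and its other probe set gave -0.12. The list's median was -0.04, -0.20 and 0.01 in these mutants.

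**Figure D3:**
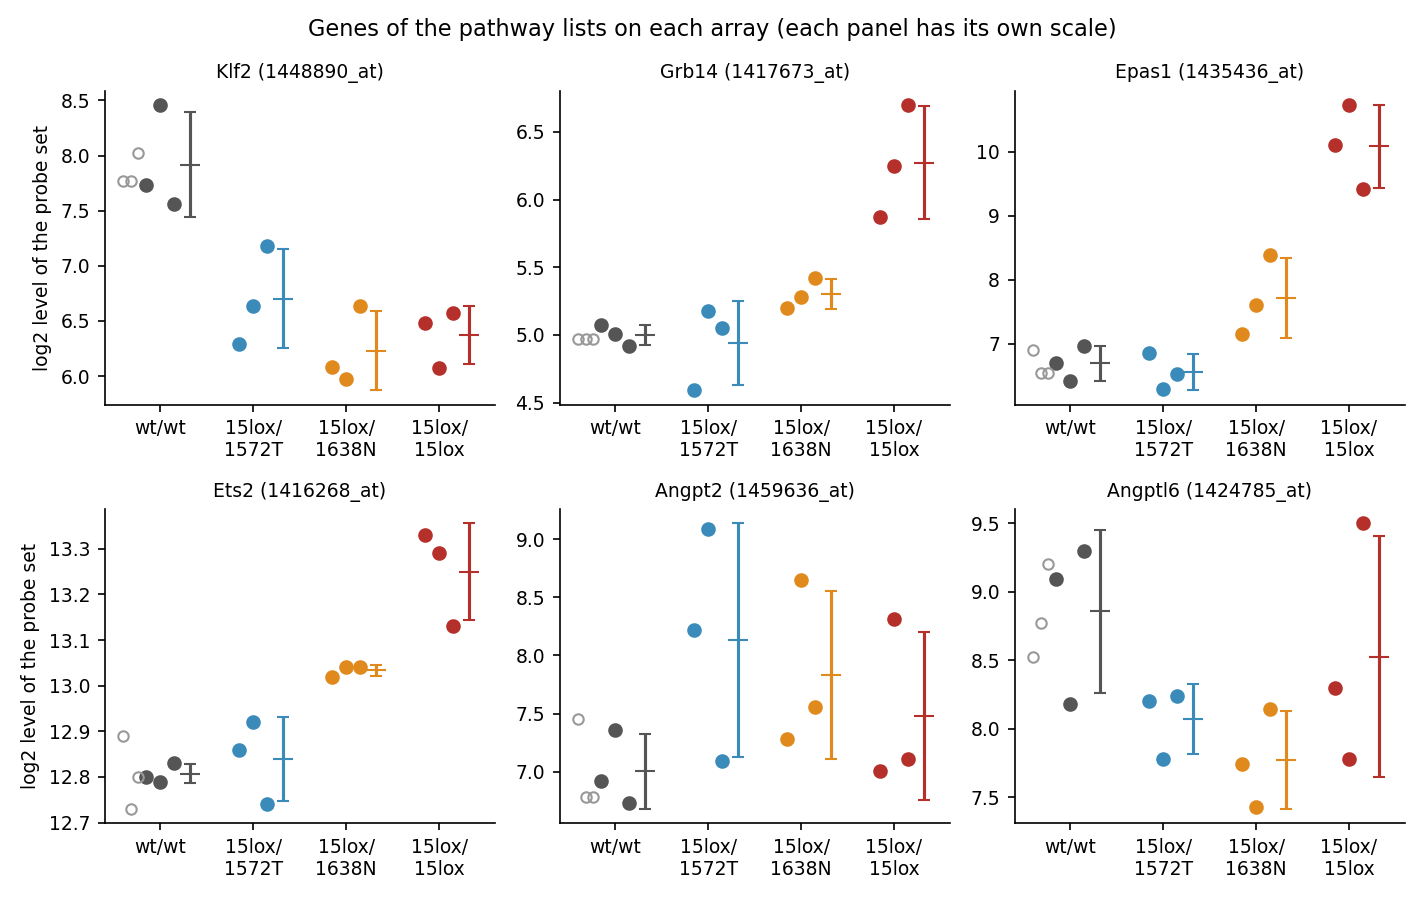
Log2 level (y axis, own scale in each panel) on every array by genotype (x axis) for 6 genes of the lists; filled points are arrays used in the comparisons, hollow circles WT 1 to 3, bars mean ± SD (n = 3). Klf2 is lower in every mutant array than in WT 4 to 6, and Epas1 in 15lox/15lox lies between 9.42 and 10.72, above all other arrays.

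Within the receptor tyrosine kinase family, to which both Tie genes belong, 53 of 55 listed genes were measured. Apart from Tek, 1 gene was called higher in 15lox/15lox and in 15lox/1638N, Ntrk3, the neurotrophin 3 receptor gene, beside 1.60% and 0.769% of all genes. In 15lox/1572T the count was 0 of 53 by limma, with 6 at an unadjusted p under 0.05, beside 7.43% of all genes. The family's median difference was -0.09, -0.04 and -0.04 in 15lox/15lox, 15lox/1638N and 15lox/1572T. The 51 genes not called ran from -0.72 (Ephb6) to 0.79 (Flt1) in 15lox/15lox and from -1.06 (Ephb6) to 1.08 (Met) in 15lox/1638N. Tek ranked 2 of 53 in both, a place favoured by its selection on these same differences, and Tie1 ranked 51 and 49.

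Ntrk3 read 5.01, 5.23 and 5.63 in wild type on 1425071_s_at and 10.54, 10.37 and 9.76 in 15lox/15lox. It read 8.62, 8.83 and 9.53 in 15lox/1638N and 5.57, 5.34 and 6.90 in 15lox/1572T. Like Tek, it was low in wild type and, on most arrays, in 15lox/1572T, and high in the other mutants. It rose by 4.93 ± 0.39 (SE) in 15lox/15lox (limma adjusted p = 4.9e-05) and by 3.70 in 15lox/1638N (0.001), with 0.65 in 15lox/1572T (0.802). Its wild-type mean lay at the 30.9 percentile of the arrays and no detection calls were used, so no fold is given. Its 8 probe sets differed in size, from 0.22 to 5.17 in 15lox/15lox, and their mean rose by 2.16 (limma adjusted p = 1.94e-05) there and by 1.33 (0.00168) in 15lox/1638N. Kit and Flt3, receptor genes of the progenitor state, and Flt1, Kdr and Flt4, the vascular growth factor receptor genes, did not pass the test in any mutant.

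**Figure D4:**
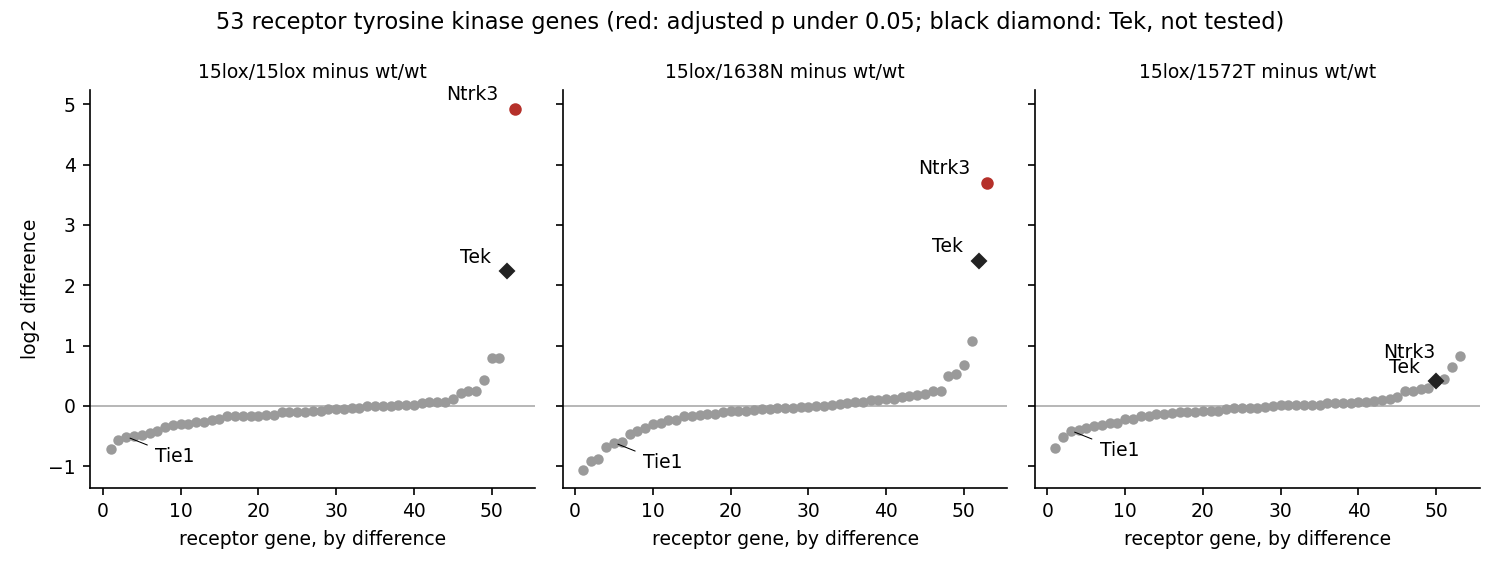
Log2 difference from wild type (y axis) of 53 receptor tyrosine kinase genes in rank order (x axis), with 1 panel per mutant; red points passed the test, grey points did not, and the black diamond is Tek, which was not tested because it was selected on these differences. Ntrk3 at 4.93 and 3.70 and Tek at 2.23 and 2.41 stand above the other receptor genes in 15lox/15lox and 15lox/1638N, while Tie1 is near the lower end.

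Axin2, a negative feedback gene of Wnt signalling that serves as a readout of pathway output, is given beside Tek. On 1436845_at it read 7.26, 7.38 and 7.57 in wild type, and 7.69, 8.80 and 9.32 in 15lox/1572T. It read 11.17, 11.10 and 11.51 in 15lox/1638N and 12.28, 12.29 and 11.94 in 15lox/15lox, so here the 4 genotypes did not overlap with WT 4 to 6 as wild type. WT 3, kept out of the comparisons, read 8.07, above the lowest 15lox/1572T array. It was 27.2-fold higher in 15lox/15lox than in wild type (4.77, limma adjusted p = 1.88e-05), with 3.86 in 15lox/1638N (0.000228) and 1.20 in 15lox/1572T (0.447). All 15lox/15lox arrays were above all 15lox/1638N arrays for Axin2, by 0.91 ± 0.32 (SE, limma adjusted p = 0.515), while Tek overlapped between them. The other Axin2 probe set read 6.76, 6.41 and 6.45 in 15lox/15lox and 6.12, 6.08 and 6.57 in 15lox/1638N, which overlap, and 5.42, 5.38 and 6.18 in 15lox/1572T, so the separation of all genotypes was seen on 1 probe set only. Within 15lox/1572T the array of lowest Axin2 (7.69) and that of highest Axin2 (9.32) read 8.22 and 8.20 for Tek.

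**Figure D5:**
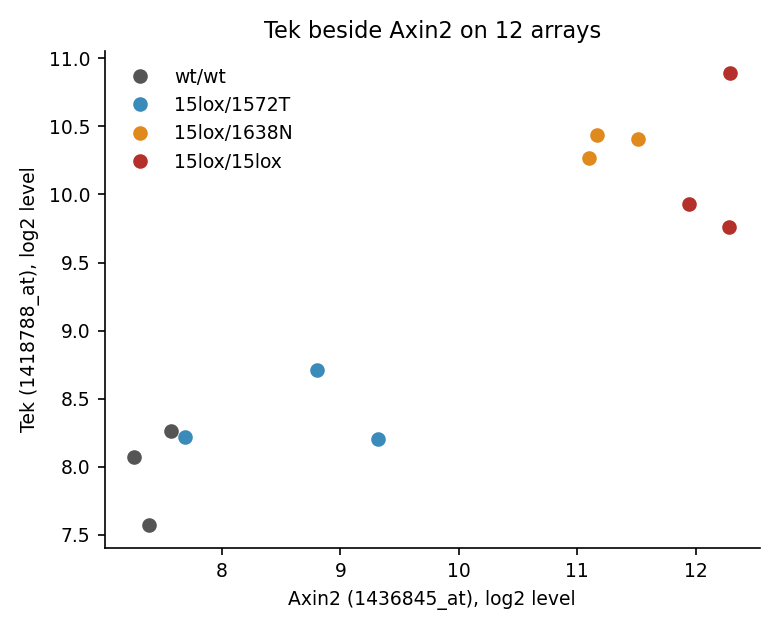
Log2 level of Tek (y axis) against that of Axin2 (x axis) on the 12 arrays compared, coloured by genotype. Tek lies below 8.71 or at it wherever Axin2 is at 9.32 or lower, and at 9.76 or higher wherever Axin2 is at 11.10 or higher, with no array between.

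The genes whose pattern was most like that of Tek were ranked by Pearson's r over the 12 arrays among 16301 genes, as a description. The arrays fall into a low and a high set for Tek, so a high r here mostly says that a gene had the same sets. Tulp3, a gene of ciliary trafficking, had r = 0.953, with means of 7.66, 8.45, 10.28 and 10.49 in wild type, 15lox/1572T, 15lox/1638N and 15lox/15lox. Next came Prtg (0.952), Zfp703 (0.95), Inafm2 (0.946), Stx3 (0.942), Bahd1 (0.94), Zfp518b (0.939) and Ccnjl (0.934). Stx3, a syntaxin gene of membrane fusion, had means of 9.17, 9.85, 10.94 and 10.87. The Wnt genes Lef1 and Axin2 had r = 0.932 and 0.924. The most opposite were S100a4 (-0.934), Adgrg3 (-0.922), Fcgbp (-0.92) and Hspb2 (-0.915).

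Likeness within genotypes, after each genotype's mean was subtracted, named other genes. The highest were Tpx2 (0.902), a spindle assembly gene, Rtp3 (0.896), Enah (0.878), an actin regulator, and Foxd1 (0.878). Rtp3 read only 4.13 to 4.33 and Foxd1 3.99 to 4.31 on the 12 arrays, both low levels, and Tpx2 varied only from 12.60 to 12.86. As the highest of 16301 genes over 12 arrays, such values can arise from noise, which was not tested. Tulp3 had 0.372 on that measure, Lef1 0.264 and Axin2 0.177. Tie1 had r = -0.482 with Tek over the 12 arrays and 0.517 within genotypes, and Angpt1 on 1439066_at had -0.38 and 0.285.

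In a bulk sample, fewer cells of a type and less RNA per cell cannot be told apart, so the other cells that carry Tek were looked at through their markers. Of 10 measured LSK and stem cell markers none was called in any mutant by limma (1, 2 and 1 at an unadjusted p under 0.05 in 15lox/15lox, 15lox/1638N and 15lox/1572T), and none lay under the array median on every array. Genotype means ran from 11.09 to 11.42 for Kit and from 13.34 to 13.55 for Cd34. The 5 measured lineage markers (Cd3e, Cd4, Cd8a, Ms4a1 and Itgam) lay below the median of every array. Ly6a, the Sca1 gene, is not listed by the platform's annotation under its symbol.

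Endothelial cells carry both Tie receptors. Of 18 endothelial markers none was called in any mutant by limma (3, 3 and 1 at an unadjusted p under 0.05). Their summed log2 level ran from 121.0 to 121.8 in wild type, 119.7 to 121.4 in 15lox/15lox, 116.8 to 119.2 in 15lox/1638N and 118.8 to 121.6 in 15lox/1572T. Of the list, Cdh5, Kdr, Cldn5, Robo4, Sox17, Sox18, Nos3 and Mmrn2 were below the median on every array, and Cdh5 means ran from 4.75 to 4.92. Plvap, Flt4, Flt1, Emcn, Ecscr, Esam, Eng, Pecam1, Egfl7 and Vwf were not. Egfl7 lay between the 77.9 and 88.9 percentile of the arrays and Eng between 72.7 and 81.2. The part of endothelial cells in the Tek levels was not tested. Of 11 megakaryocyte markers none was called (0, 2 and 1 at an unadjusted p under 0.05), with sums of 97.8 to 103.6, 99.9 to 105.2, 96.6 to 99.8 and 101.9 to 106.7 in the same order of genotypes. Gp6 and Tubb1 were below the median on every array and the others were not. Pf4 lay between the 98.1 and 99.3 percentile of the arrays, and Itgb3 between 93.5 and 96.5. The part of megakaryocytes in the Tek levels was not tested. Of 13 stromal markers none was called (3, 3 and 1), and 12, all but Pdgfrb, were below the median on every array.

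Of 14 monocyte and macrophage markers, 3 rose in 15lox/15lox (Cd14, Ccr2 and F13a1), 2 in 15lox/1638N (Cd14 and Ccr2) and 1 in 15lox/1572T (Cd14), and none fell; 7, 5 and 5 had an unadjusted p under 0.05. The list's median difference was -0.05, -0.13 and -0.01 in these mutants, beside -0.05, -0.03 and -0.03 over all genes. Other members had lower means in the mutants with high Tek without passing the test: Csf1r averaged 12.09 in wild type, 11.21 in 15lox/1638N and 11.73 in 15lox/15lox, Cd163 averaged 9.75 in wild type and 8.97 in 15lox/15lox, and Nrp1 averaged 11.05 in wild type, 10.62 in 15lox/1638N and 10.49 in 15lox/15lox. Summed levels ran from 111.6 to 113.5 in wild type, 113.4 to 118.3 in 15lox/15lox, 113.5 to 116.8 in 15lox/1638N and 113.3 to 117.5 in 15lox/1572T. Cd14, a lipopolysaccharide co-receptor, read 6.62, 6.45 and 6.67 in wild type, 9.19, 8.88 and 9.25 in 15lox/1572T, 10.37, 10.11 and 9.95 in 15lox/1638N, and 9.41, 8.66 and 9.02 in 15lox/15lox. It rose in every mutant, 15lox/1572T included, where Tek overlapped wild type: by 2.53 there, 3.56 in 15lox/1638N and 2.45 in 15lox/15lox (limma adjusted p = 0.00116, 3.04e-05 and 3.64e-05). Ccr2, a chemokine receptor gene, rose by 1.15 in 15lox/15lox (limma adjusted p = 0.000931) and by 0.90 in 15lox/1638N (0.0102), with 0.36 in 15lox/1572T (0.632), with its higher levels in the genotypes of high Tek. The 15lox/1638N call ended without WT array 4 (0.0549) or 6 (0.0505) or N1638 array 1 (0.0508). F13a1, a coagulation factor gene of monocytes and megakaryocytes, rose by 1.63 in 15lox/15lox (0.0173), a call that ended without WT array 5 (0.0862) and with Xist as a covariate (0.0874), and differed by 1.20 in 15lox/1638N (0.078). Adgre1, Mrc1, Lyve1 and Vcan, among them macrophage and Tie2-expressing monocyte genes, were below the median on every array. The part of monocytes in the Tek levels was not tested.

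Facts of the whole series bear on these values in other ways. Array medians ran from 6.65 to 6.84. The mean of WT 1 to 3 equals that of WT 4 to 6 within 0.05 for 96.7% of probe sets, so WT 1 to 3 look shifted onto WT 4 to 6 and were kept out. Their Tek readings were 8.27, 8.43 and 7.23 (7.98 ± 0.65, SD, n = 3), all below those of 15lox/1638N and 15lox/15lox. Given that shift, these readings are not independent of WT 4 to 6. Xist, which marks female cells, was high on 0 of 3 wild-type arrays, 1 of 3 of 15lox/1572T, 1 of 3 of 15lox/1638N and 2 of 3 of 15lox/15lox. Among arrays low for Xist, Tek read 9.76 in 15lox/15lox, 10.44 and 10.27 in 15lox/1638N, and 8.71 and 8.20 in 15lox/1572T. With Xist as a covariate, Tek differed from wild type by 2.12, 2.35 and 0.36 in 15lox/15lox, 15lox/1638N and 15lox/1572T. The Klf2 call in 15lox/15lox (-1.51, limma adjusted p = 0.116), that of Grb14 (1.22, 0.0562) and that of Ets2 (0.105) ended with that covariate.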

How the data were processed

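Expression was measured on 15 arrays. The authors deposited log2 probe set values; the scale was read from the values, and the submitters' processing notes name RMA and mm9 without role or version. The platform's annotation gave 34958 of 45101 probe sets 1 symbol, 932 several, and did not list 9211. WT 4 to 6 and the 9 mutant arrays were analysed in R 4.3.3 with limma 3.58.1 (lmFit and eBayes; residual degrees of freedom 8), with no filter or further normalization, two-sided, with Benjamini-Hochberg adjustment over all probe sets per contrast and a threshold of 0.05. List counts used 1 probe set per gene, that of highest mean. The number of arrays limits the precision. Members and lists were chosen with earlier results of these data known. Named genes were all members and their axis, up to 4 called genes per list or else that of largest difference, Axin2, Lef1, and those most like Tek. Kit, Cd34, Cdh5, other marker genes given by means, percentiles or side of the median, and receptor genes named at the ends of ranges or without values fall outside that rule. The fit was tested on simulated data. Alternatives covered the wild-type arrays used, normalization, a filter, variance options, probe set choice, Xist, each array left out, and replicate blocks.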

Additional observations from a re-analysis of the deposited data

How the results depend on the processing

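Over 51 results and 25 alternative settings, 1167 of 1218 values kept their side of the threshold or, for values without a test, their size, and 16 results changed in some setting. No value past the threshold changed sign; 10 results, Tek between 15lox/15lox and 15lox/1638N among them (-0.53 to 0.04), held both signs over the settings, and no setting called any of these. The totals include Tek against wild type and the gene counts, which have no test. With all 6 wild-type arrays Tie1 in 15lox/1638N passed (-0.60, limma adjusted p = 0.037). Called genes were also counted among the 97 measured of the pathway lists, with Tek included although its selection fixed it. With all 6 wild-type arrays they numbered 11 rather than 6 in 15lox/15lox, 14 rather than 3 in 15lox/1638N and 1 rather than 0 in 15lox/1572T. Over all probe sets that setting called 1951, 3912 and 283 rather than 674, 623 and 13; WT 1 to 3 look shifted onto WT 4 to 6. Array weights called 1124, 3443 and 92, and the Xist covariate 346, 392 and 9. The Xist covariate left 3 pathway genes in 15lox/15lox. In 15lox/1638N that count was 5 with trend and robust options, with 1 probe set per gene, with the mean of probe sets, with only the groups compared, and with the replicate block on WT 1 to 3, and 12 with array weights. Over all 45101 probe sets the trend and robust options called 749 there, and the fit of only those groups 1135, rather than 623. Of 18194 genes, 1 probe set per gene called 636 and the mean of probe sets 640, beside 140 higher and 232 lower in the main fit. Leaving out 1 array at a time gave between 2 and 5 pathway genes, the highest without N1638 array 3. Those fits called between 159 and 882 of all probe sets in 15lox/1638N. Tek between 15lox/15lox and 15lox/1572T was 1.82 with only those groups (limma adjusted p = 0.107). Between 15lox/1638N and 15lox/1572T it ran from 1.91 to 2.16 with 1 array left out, and was 2.00 with the replicate block on the mutant arrays (limma adjusted p = 0.0531). Over all probe sets that block called 39, 357 and 33 rather than 84, 451 and 77 (15lox/15lox against 15lox/1638N and against 15lox/1572T, and 15lox/1638N against 15lox/1572T), and the block on WT 1 to 3 called 692, 1045 and 31 against wild type. The deviations of same-numbered mutant arrays correlated at -0.07 to 0.38, over 0.1 in 6 of 9 pairs, and not every array correlated best with its own number, so the data hint at shared numbers for some arrays while the labels state no pairing. The cause of these changes was not tested.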
